A study of Homo sapiens with 10 samples.

Results

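The genes described here are 55 enzymes and core subunits that write or remove methyl and acetyl groups on DNA and histones: DNA methyltransferases and their cofactors, TET dioxygenases, histone lysine methyltransferases, the subunits of Polycomb repressive complex 2 (PRC2), histone demethylases, histone deacetylases, sirtuins and histone acetyltransferases. They were chosen by name, from a list of symbols, and not by a cut on measured values. Earlier results of these data were known when the list was made. For each symbol the array's transcript cluster (the set of probes that measures 1 gene) with the highest mean over all 10 arrays was used, and all 55 symbols were found among 18355 genes with a cluster of their own on an array of 28869 clusters. Every sample came from BEAS-2B, an established cell line made by immortalising human bronchial epithelium with viral genes. Each of 9 cell lines had been expanded in monolayer from 1 colony picked from soft agar after 3 weeks of growth without attachment. The 3 control lines came from colonies that arose spontaneously in untreated cells, the 3 Cr_small lines from small colonies and the 3 Cr_large lines from large colonies of cells that had been kept in 0.5 µM hexavalent chromium, Cr(VI), as potassium chromate, for 30 days, and the 10th array held the parental cells. The treatment label of every array, controls and parental cells included, gives the chromate exposure, so the groups were taken from the titles and cell type labels, with which the study's methods accord. Every line is a single colony with 1 array, the parental cells have 1 array, and no second, independent exposure is described, so the error given below is the spread between lines.

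DNA methyltransferases place methyl groups on cytosine in CG pairs, and TET enzymes oxidise them, while histone marks are written by lysine methyltransferases and acetyltransferases and erased by demethylases, deacetylases and sirtuins. Methylation at H3K9 or H3K27 (lysines of histone H3) is typical of silent chromatin, and methylation at H3K4 together with acetylation is typical of active promoters and enhancers. Chromate is a known lung carcinogen, and changes in DNA methylation and histone marks after chromate exposure have been described in lung cells.

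All values are log2 intensities or differences between them, and a gene was called changed where limma's adjusted p (Benjamini-Hochberg, over all clusters) was under 0.05. Of the 55 genes, 13 were called in the 6 Cr lines against the 3 control lines, 8 higher and 5 lower, which is 23.6%. Over all genes 14.6% were called, 7.01% higher and 7.58% lower, and among genes with a mean log2 intensity over 7, where 45 of the 55 lie, the shares were 26.7% for the list and 24.0% for all genes. The list was therefore changed about as often as other genes of its level, in both directions, and its median difference was 0.06 beside 0.025 over all genes. KAT2A, UHRF1, KMT2A, KDM4A, KDM3A, EZH1, EZH2 and KDM1A rose in the Cr lines, and KAT2B, TET2, EP300, KDM5B and SETDB2 fell. The changes were modest, with folds between 1.19 and 1.96, and 5 of the 13 (KAT2A, KAT2B, TET2, EP300 and KDM5B) reached 1.5-fold. All 6 Cr lines lay above the 3 control lines for 9 of the 55 genes, beside 11.3% of all genes, and below them for 6, beside 9.82% of all genes. Arrays measure RNA from a whole culture, so fewer cells expressing a gene and less RNA per cell cannot be told apart.

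Some properties of the arrays bear on these genes. BEAS-2B showed the keratins of simple epithelium, with KRT8 and KRT18 at 11.19 or more on every array, whereas CDH1 (E-cadherin) and EPCAM lay between 4.81 and 5.71, near the lower end of a scale that runs from 4.32 to 14.05. Of 8 epithelial markers measured, 3 were called higher in the Cr lines, KRT8 by 0.75, KRT18 by 0.82 and KRT7 by 0.32, as large as the changes of the enzymes below. KRT7 lost its call in 8 of the 9 analyses that left out 1 line. The largest difference of the 8 markers, 1.77 (0.99 in Cr_small and 2.56 in Cr_large), belonged to a marker that was not called. Log2 of the summed intensity of those 8 was 12.91 to 13.23 in the control lines, 13.47 to 13.84 in Cr_small and 13.79 to 13.93 in Cr_large, and its part in the results below was not tested. No marker of mesenchymal cells (0 of 3, with FN1, VIM and CDH2 all high), of club, goblet and ciliated cells (0 of 3) or of blood, endothelial and alveolar cells (0 of 6) was called by limma. At an unadjusted p under 0.05 there were 1, 0 and 2, and PTPRC, CD3E and PECAM1 had means of 4.55 to 5.09 in the control and Cr lines. Among all 6 genes of that last list the largest difference was 0.50, and 0.72 in Cr_large. Log2 of their summed intensity was 8.35 to 8.43 in the control lines, 8.41 to 8.66 in Cr_small and 8.54 to 9.01 in Cr_large. The second control line stood apart: it was below both other control lines for 37 of the 55 genes (67.3%), beside 53.8% of genes with a mean log2 intensity over 7 and 40.5% of all genes, and for 20 of the 55 it was lower than their mean by at least 0.3. Without it 12 of the 55 were called, of which 8 were among the 13, the losses being UHRF1, EZH1, KDM4A, KDM1A and KAT2B. Without the first or the third control line 4 of the 13 were still called in each case, with the second line then 1 of the 2 left. UHRF1 then differed by 0.63 and 0.61, more than the 0.54 with all lines. EP300 differed by -0.54 and -0.55, less than the -0.63 with all lines. KAT2A, SETDB2 and EZH2 were called in each of the 18 alternative analyses, and the direction of the 13 was the same in all of them.

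**Figure D1:**
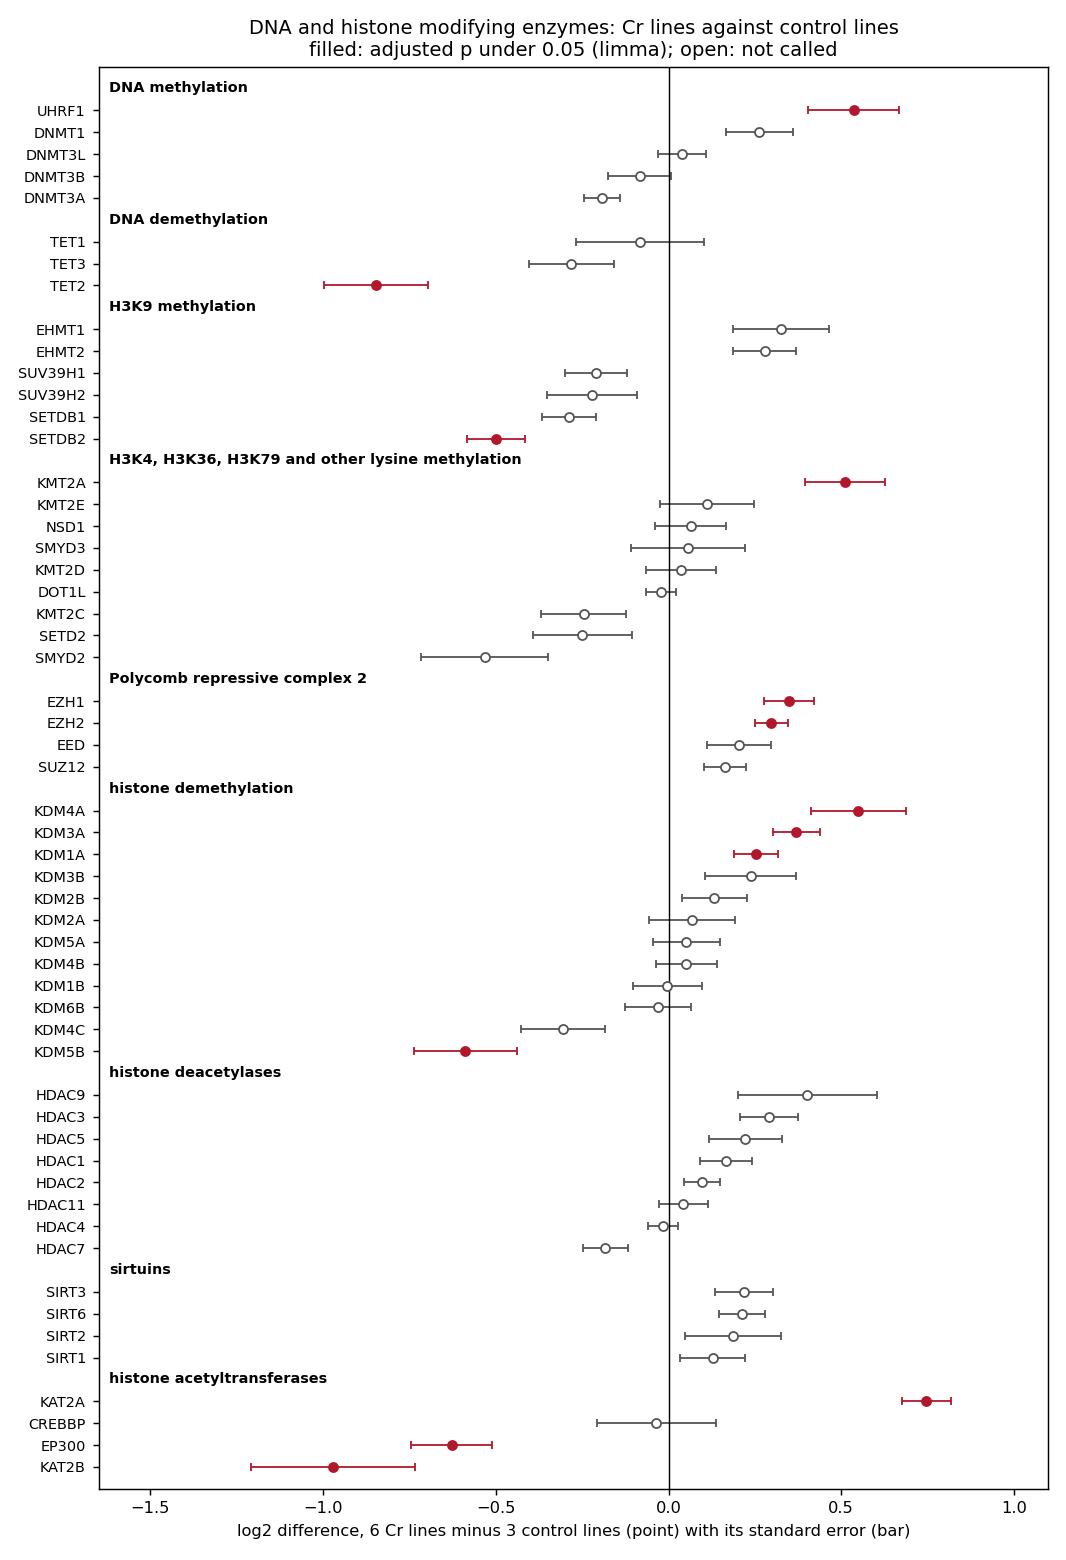
Log2 difference between the 6 Cr lines and the 3 control lines (x axis) for each of the 55 genes, grouped by role, with the standard error of limma as the bar. Filled points passed the adjusted p of 0.05 and open points did not. The 13 called genes run from KAT2B at -0.97 to KAT2A at 0.75, and the deacetylases and sirtuins among the 55 hold no filled point.

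Among the genes of DNA methylation, UHRF1, which recognises half-methylated DNA after replication and brings DNMT1 to it, was the 1 of 5 that was called. UHRF1 read 9.06, 8.54 and 9.02 in the control lines, 9.56, 9.50 and 9.49 in Cr_small, and 9.47, 9.40 and 9.06 in Cr_large. Apart from 1, the 6 Cr lines were above all control lines, and the third Cr_large line lay within their range. UHRF1 was higher in the Cr lines by 0.54 (SE 0.13, limma adjusted p = 0.0375), but the call was lost in 8 of the 9 analyses that left out 1 line (adjusted p = 0.0553 to 0.0768), all but that without the third Cr_large line. The difference was 0.37 without the second control line, and a dim second cluster of the gene, at a mean of 5.63, differed by -0.02 (adjusted p = 0.874).

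DNMT1, the maintenance methyltransferase that copies methylation to the new strand, was at 9.32, 8.96 and 9.28 in the control lines, 9.51, 9.49 and 9.58 in Cr_small, and 9.44, 9.49 and 9.18 in Cr_large. The order of lines resembles that of UHRF1, with the second control line and the third Cr_large line lowest in their groups. The difference for DNMT1 was 0.26 (95% confidence interval 0.04 to 0.49, adjusted p = 0.140), which did not pass. DNMT3A, a de novo methyltransferase, was at 6.79 to 6.82 in the control lines and at 6.54 to 6.81 in the Cr lines, of which 5 were below all control lines. Its difference of -0.19 just missed the threshold over the 6 lines (adjusted p = 0.0527) and passed for Cr_large alone, where it fell by 0.25 (adjusted p = 0.0449). DNMT3B, the other de novo enzyme, read 6.58, 6.45 and 6.61 in the control lines and 6.30 to 6.69 in the Cr lines, so the groups overlapped, with a difference of -0.08 (adjusted p = 0.665). DNMT3L, a catalytically inactive partner used in germ cells, lay at 4.93 to 5.21 on all arrays.

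TET2, a dioxygenase that starts the removal of cytosine methylation, was among the genes with the largest falls. It read 7.86, 7.48 and 7.82 in the control lines, 6.94, 6.70 and 7.001 in Cr_small, and 6.92, 6.53 and 7.17 in Cr_large. All 6 Cr lines were below the lowest control line, and the parental cells, at 7.45, were also above them. TET2 fell by 0.85 (SE 0.15, adjusted p = 0.0108), and a second cluster of the gene fell by 0.82 (adjusted p = 0.000670). Leaving out the first or the third control line took the adjusted p of the first cluster to 0.0535 and 0.0548. TET1 varied among lines of every group, from 5.60 to 6.14 in the control lines and from 5.40 to 6.11 in the Cr lines, and differed by -0.08 (adjusted p = 0.854). TET3 differed by -0.28 (adjusted p = 0.208), so neither was called.

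The 6 methyltransferases of H3K9 differed in sign, 2 positive and 4 negative, and SETDB2 was called. SETDB2, a SET domain enzyme of this class, was at 6.57, 6.56 and 6.59 in the control lines, 6.27, 6.13 and 5.89 in Cr_small, and 6.02, 5.95 and 6.18 in Cr_large. The groups did not overlap, and the parental cells, at 6.57, had the control level. SETDB2 fell by 0.50 (SE 0.08, adjusted p = 0.00894) and passed in Cr_small and Cr_large separately. SETDB1, which silences repeats together with KAP1, was also below all control lines in all 6 Cr lines (7.38 to 7.78 against 7.82 to 7.88), with a difference of -0.29 that just missed the threshold (adjusted p = 0.0534). EHMT1 and EHMT2 form the G9a-GLP dimer, which mono- and dimethylates H3K9. EHMT1 read 7.57, 7.32 and 7.57 in the control lines, 8.03, 7.996 and 7.54 in Cr_small, and 7.75, 8.02 and 7.56 in Cr_large, where 1 line of each colony size had the control level. EHMT2 read 7.95, 7.53 and 7.85 in the control lines and 7.93 to 8.15 in the Cr lines, of which 5 were above all control lines. The differences were 0.33 for EHMT1 (95% confidence interval 0.00 to 0.65, adjusted p = 0.200) and 0.28 for EHMT2 (0.07 to 0.49, adjusted p = 0.0974). SUV39H1 and SUV39H2, which trimethylate H3K9 in heterochromatin, had differences of -0.21 and -0.22 that did not pass, and SUV39H1 was at 8.82, 8.47 and 8.78 in the control lines and 8.30 to 8.59 in the Cr lines.

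Of 9 methyltransferases of H3K4, H3K36, H3K79 and other sites, KMT2A (MLL1), which methylates H3K4 at active promoters, was called. KMT2A read 8.71, 8.11 and 8.55 in the control lines, 9.03, 9.004 and 8.997 in Cr_small, and 8.95, 8.84 and 8.97 in Cr_large. Every Cr line was above every control line, and the parental cells, at 8.99, stood with the Cr lines. KMT2A was higher by 0.51 (SE 0.12, adjusted p = 0.0281), and its second cluster rose by 0.34 (adjusted p = 0.00764). The first cluster lost its call in 6 of the 9 analyses that left out 1 line, with adjusted p = 0.0524 to 0.0702 in those 6. Its relatives KMT2C, KMT2D and KMT2E differed by -0.25, 0.04 and 0.11 and were not called. SMYD2, which methylates H3K36 and also p53 and RB1, had the largest difference that was not called, -0.53 (95% confidence interval -0.96 to -0.11, adjusted p = 0.116), and its 6 Cr lines ranged from 7.22 to 8.09 against 8.04 to 8.29 in the control lines. SETD2 (H3K36 trimethylation), NSD1 (H3K36), DOT1L (H3K79) and SMYD3 differed by -0.25, 0.06, -0.02 and 0.06, with adjusted p-values from 0.349 to 0.895.

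All 4 PRC2 genes measured, which together methylate H3K27, had positive differences, beside 10841 of all 18355 genes. Both catalytic subunits were called (50% of the 4, beside 14.6% of all genes and 24.0% of those with a mean log2 intensity over 7). EZH2, the catalytic subunit of dividing cells, read 9.13, 9.15 and 9.23 in the control lines, 9.49, 9.53 and 9.45 in Cr_small, and 9.42, 9.38 and 9.55 in Cr_large. EZH1, its paralogue that predominates in resting cells, read 7.07, 7.06 and 7.01 in the control lines, 7.40, 7.69 and 7.42 in Cr_small, and 7.21, 7.39 and 7.29 in Cr_large. For both genes all 6 Cr lines lay above the control lines, and the parental cells, at 9.44 for EZH2 and 7.71 for EZH1, were also above them. EZH2 rose by 0.30 (SE 0.05, adjusted p = 0.00666) and EZH1 by 0.35 (SE 0.07, adjusted p = 0.0194), while the scaffold subunits EED and SUZ12 differed by 0.20 and 0.16 with adjusted p = 0.231 and 0.138. EZH2 passed with any single line left out, and EZH1 did not without any 1 of the control lines (adjusted p from 0.0542 to 0.0842).

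Promoters were read for 52 of the 55 genes, as the window from 250 bases before to 50 bases after the start of transcription in RefSeq (GRCh38.p14), all but DNMT3L, HDAC5 and DOT1L. E2F factors drive genes of DNA replication, and both strands were searched for 4 forms of their site, TTTCCCGC, TTTCGCGC, TTTGCCGC and TTTGGCGC and no other motif. A match was present in 7 of the 52 (13.5%), namely DNMT1, UHRF1, EZH1, EZH2, SUZ12, KDM1B and SIRT6, beside 4.52% of 14211 promoters of genes with a cluster of their own and 3.33% of all 27305 promoters. Of the called genes, 3 of those that rose and none of those that fell held a match; a match is a run of letters and not a site shown to be bound. The promoters of those 3 genes are shown with the match in capitals: UHRF1 on the plus strand (chr19:4909251-4909550), EZH2 on the minus strand (chr7:148884242-148884541) and EZH1 on the minus strand (chr17:42744991-42745290).
UHRF1: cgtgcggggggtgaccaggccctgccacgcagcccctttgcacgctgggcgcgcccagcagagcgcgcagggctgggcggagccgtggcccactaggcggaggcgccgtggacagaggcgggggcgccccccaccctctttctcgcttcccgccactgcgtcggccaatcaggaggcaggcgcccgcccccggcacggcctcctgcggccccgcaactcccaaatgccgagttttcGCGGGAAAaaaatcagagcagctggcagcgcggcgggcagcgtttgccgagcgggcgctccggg
EZH2: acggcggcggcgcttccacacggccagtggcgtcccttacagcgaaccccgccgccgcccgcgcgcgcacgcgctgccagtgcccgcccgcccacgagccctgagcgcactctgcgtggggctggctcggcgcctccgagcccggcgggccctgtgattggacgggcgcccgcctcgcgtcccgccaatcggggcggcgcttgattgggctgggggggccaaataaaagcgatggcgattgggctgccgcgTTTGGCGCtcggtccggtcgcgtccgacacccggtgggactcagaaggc
EZH1: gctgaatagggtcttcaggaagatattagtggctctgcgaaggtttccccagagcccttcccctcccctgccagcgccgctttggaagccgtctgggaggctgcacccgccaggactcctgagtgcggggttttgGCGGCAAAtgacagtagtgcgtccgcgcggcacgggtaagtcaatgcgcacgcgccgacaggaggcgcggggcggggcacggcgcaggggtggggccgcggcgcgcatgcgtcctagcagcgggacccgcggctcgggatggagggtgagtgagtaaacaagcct

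Of 12 histone demethylases 4 were called, KDM4A, KDM3A and KDM1A higher and KDM5B lower. That is 33.3%, beside 14.6% of all genes and 24.0% of those with a mean log2 intensity over 7. KDM3A, which removes methyl groups from H3K9 and is known to respond to hypoxia, read 7.39, 7.32 and 7.56 in the control lines, 7.80, 7.88 and 7.74 in Cr_small, and 7.88, 7.78 and 7.68 in Cr_large. The groups did not overlap, and the parental cells, at 7.89, were at the level of the highest Cr lines. KDM3A rose by 0.37 (SE 0.07, adjusted p = 0.0119), and without the first control line its adjusted p was 0.0552. KDM4A, which acts on H3K9 and H3K36, was at 8.68, 8.17 and 8.58 in the control lines, 9.38, 8.97 and 8.93 in Cr_small, and 8.92, 9.07 and 8.87 in Cr_large, with a difference of 0.55 (SE 0.14, adjusted p = 0.0400). KDM1A (LSD1), which demethylates H3K4 within corepressor complexes, was at 10.16 to 10.25 in the control lines and 10.34 to 10.63 in the Cr lines, with a difference of 0.25 (SE 0.06, adjusted p = 0.0387). For both genes all 6 Cr lines were above all control lines. Neither KDM4A nor KDM1A was called in Cr_small or Cr_large alone, and with 1 line left out KDM4A lost its call in 8 of 9 analyses (adjusted p = 0.0519 to 0.106) and KDM1A in 7 of 9 (0.0577 to 0.121).

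KDM5B, a demethylase of H3K4 often raised in tumours, was at 9.43, 9.04 and 9.41 in the control lines, 8.43, 8.39 and 8.76 in Cr_small, and 9.02, 8.56 and 9.08 in Cr_large. The 3 Cr_small lines and 2 of the Cr_large lines were below all control lines, and the third Cr_large line was just above the lowest control line. KDM5B fell by 0.59 (SE 0.15, adjusted p = 0.0429), and lost its call in 5 of the 9 analyses that left out 1 line (adjusted p = 0.0526 to 0.154), with the highest values without the first or the third control line. KDM4C, an H3K9 demethylase, lay below all control lines in every Cr line (6.95 to 7.61 against 7.69 to 7.80) and differed by -0.31 (adjusted p = 0.172). KDM3B differed by 0.24, and KDM1B, KDM2A, KDM2B, KDM4B, KDM5A and KDM6B by at most 0.13 in either direction, with adjusted p-values no lower than that of KDM3B (0.330).

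None of the 8 histone deacetylases and 4 sirtuins of the list was called, whereas HDAC6 and HDAC8, outside the list, were called lower and are given below. The 8 deacetylases had 6 positive and 2 negative differences, from -0.18 for HDAC7 to 0.40 for HDAC9, and 2, HDAC3 and HDAC7, had an unadjusted p under 0.05. HDAC3, the catalytic subunit of NCoR and SMRT complexes, was at 9.95, 9.73 and 9.94 in the control lines and 10.02 to 10.33 in the Cr lines, so the groups did not overlap, and the difference was 0.29 (95% confidence interval 0.10 to 0.48, adjusted p = 0.0653). HDAC1 and HDAC2, the class I enzymes of most corepressor complexes, differed by 0.17 (-0.01 to 0.34) and 0.10 (-0.03 to 0.22). HDAC1 lay at 11.10 to 11.16 in the control lines and at 11.05 to 11.50 in the Cr lines, of which 5 were above all control lines and 1 below them. HDAC4, HDAC5 and HDAC11 differed by -0.02, 0.22 and 0.04. SIRT1, SIRT2, SIRT3 and SIRT6, the NAD-dependent deacetylases, had differences of 0.13, 0.19, 0.22 and 0.21, and SIRT6 was above all control lines (6.95 to 7.13) in all 6 Cr lines (7.15 to 7.43) with adjusted p = 0.0881.

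Of the 4 acetyltransferases 3 were called, beside 14.6% of all genes and 24.0% of those with a mean log2 intensity over 7, and the pair KAT2A and KAT2B went opposite ways. KAT2A (GCN5) and KAT2B (PCAF) are close paralogues that serve alternatively as the acetyltransferase of SAGA and ATAC coactivator complexes. KAT2A read 8.22, 8.07 and 8.23 in the control lines, 8.85, 9.14 and 8.91 in Cr_small, and 8.93, 8.87 and 8.84 in Cr_large. All 6 Cr lines were above the control lines by more than the range within either set, and the parental cells were lowest at 7.89. KAT2A rose by 0.75 (SE 0.07, adjusted p = 0.000786), the lowest adjusted p of the 55.

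KAT2B read 8.26, 7.98 and 8.11 in the control lines, 7.33, 7.10 and 6.99 in Cr_small, and 6.88, 6.71 and 7.87 in Cr_large. All 6 Cr lines were below the control lines, but the third Cr_large line was only slightly so, and the parental cells, at 8.15, had the control level. KAT2B fell by 0.97 (SE 0.24, adjusted p = 0.0364), and without the third Cr_large line by 1.15 (adjusted p = 0.00121). It was not called when any other single line was left out, with adjusted p-values from 0.0541 to 0.130, although the difference then stayed between -0.86 and -1.04. EP300 (p300), which acetylates enhancers, read 8.46, 7.96 and 8.45 in the control lines, 7.69, 7.56 and 7.76 in Cr_small, and 7.75, 7.63 and 7.56 in Cr_large. The Cr lines were all below the lowest control line, and EP300 fell by 0.63 (SE 0.12, adjusted p = 0.0131), with adjusted p = 0.0599 and 0.0621 without the first or the third control line. CREBBP (CBP), the paralogue of EP300, was at 8.96, 8.41 and 8.92 in the control lines and 8.56 to 9.20 in the Cr lines and differed by -0.04 (95% confidence interval -0.43 to 0.36, adjusted p = 0.940).

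The promoters of the opposed pair are shown to let them be compared: KAT2A on the minus strand (chr17:42121318-42121617) and KAT2B on the plus strand (chr3:20040196-20040495), with no capitals because neither holds an E2F match. KAT2A has 18 CG pairs in the 300 bases and KAT2B 40, where the median was 30 over the 52 genes and 23 over the promoters of genes with a cluster of their own.
KAT2A: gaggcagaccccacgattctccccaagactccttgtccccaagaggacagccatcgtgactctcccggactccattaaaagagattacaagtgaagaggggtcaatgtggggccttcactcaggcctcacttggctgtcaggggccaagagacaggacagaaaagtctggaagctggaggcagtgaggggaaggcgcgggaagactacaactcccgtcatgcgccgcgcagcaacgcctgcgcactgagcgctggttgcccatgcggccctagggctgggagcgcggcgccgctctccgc
KAT2B: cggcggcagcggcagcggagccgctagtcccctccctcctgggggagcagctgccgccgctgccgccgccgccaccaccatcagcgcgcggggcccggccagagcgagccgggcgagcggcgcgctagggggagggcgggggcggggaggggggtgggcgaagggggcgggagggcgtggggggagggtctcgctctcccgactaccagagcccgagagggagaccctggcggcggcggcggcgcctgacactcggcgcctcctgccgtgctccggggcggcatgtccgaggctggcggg

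**Figure D2:**
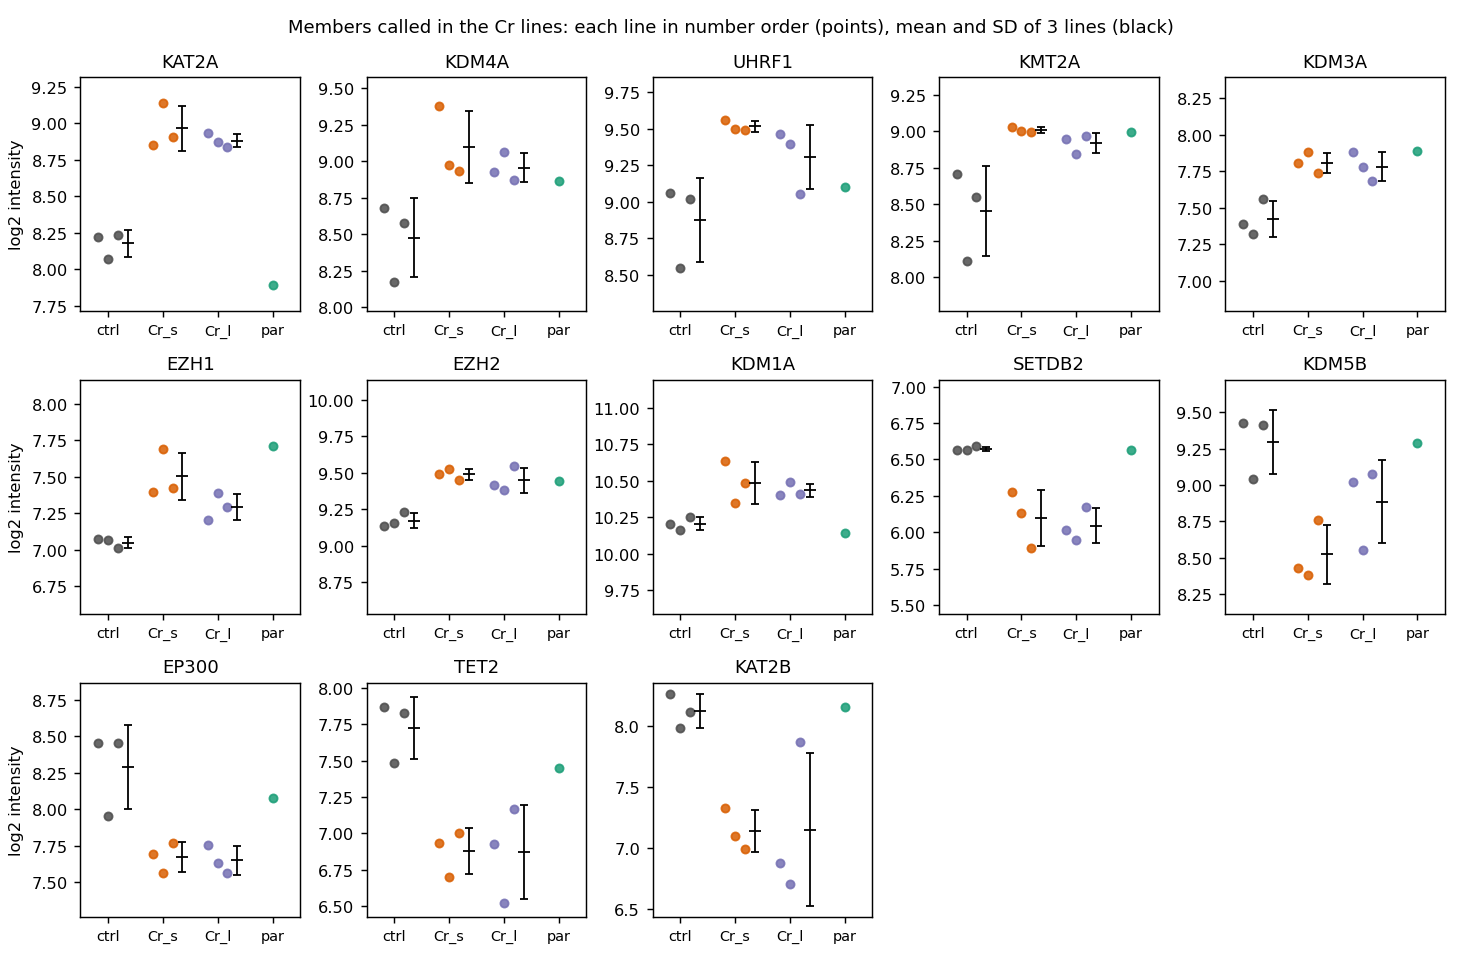
Log2 intensity (y axis, each panel spanning its own range) of the 13 called genes in each control (ctrl), Cr_small (Cr_s), Cr_large (Cr_l) and parental (par) array; points are lines and black marks are the mean and SD of 3 lines. For 11 of the 13 the Cr lines and the control lines do not overlap, the exceptions being UHRF1 and KDM5B.

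Small and large colonies were compared next, and both are set against the same 3 control lines. Cr_small lines had 10 called genes, 6 higher and 4 lower (18.2%), beside 11.0% of all genes, 5.04% higher and 5.98% lower. Cr_large lines had 7, of which 3 were higher and 4 lower (12.7%), beside 9.88% of all genes, 4.36% higher and 5.51% lower. KAT2A, EZH2, KDM3A, TET2, SETDB2 and EP300 were called in both, UHRF1, KMT2A, EZH1 and KDM5B in Cr_small, and DNMT3A in Cr_large. Passing in 1 set and not in the other does not show a difference between them. Set directly against each other, Cr_large and Cr_small differed in none of the 55 genes after adjustment (limma, 0% of all genes), in 2 at an unadjusted p under 0.05 by limma, beside 5.27% of all genes, and in 1 (DOT1L) by the methods' t-test, which called 0 after adjustment. The 2 by limma were DOT1L and EZH1, and EZH1 was at 7.21 to 7.39 in Cr_large and 7.40 to 7.69 in Cr_small. KDM5B had the largest difference of the 55, with Cr_large above Cr_small by 0.36 (unadjusted p = 0.0696).

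The parental cells are a single array, so their values are a description with no test, and both comparisons with them share that array. Set against it, 2 of the 55 genes (3.64%) differed by at least 1.5-fold in the mean of the control lines, beside 5.98% of all genes, with TET3 at a difference of 0.62 and EZH1 at -0.66. In the mean of the Cr lines 2 also did so, beside 9.14% of all genes, KAT2A at 1.03 and KAT2B at -1.003. Among the 13 called genes the parental value was nearer to the control mean for 8 and nearer to the Cr mean for 5. The 5 were KMT2A, KDM4A, KDM3A, EZH1 and EZH2, all higher in the Cr lines, with the control lines farther from the parental array than the Cr lines. For EZH1 both lay below it, the Cr mean at -0.31. For EZH2 the difference from the parental array was 0.03 in the Cr mean and -0.27 in the control mean, and for KMT2A it was -0.03 and -0.54. By contrast all 5 genes that fell (KAT2B, TET2, EP300, KDM5B and SETDB2) had parental values nearer to the control lines.

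**Figure D3:**
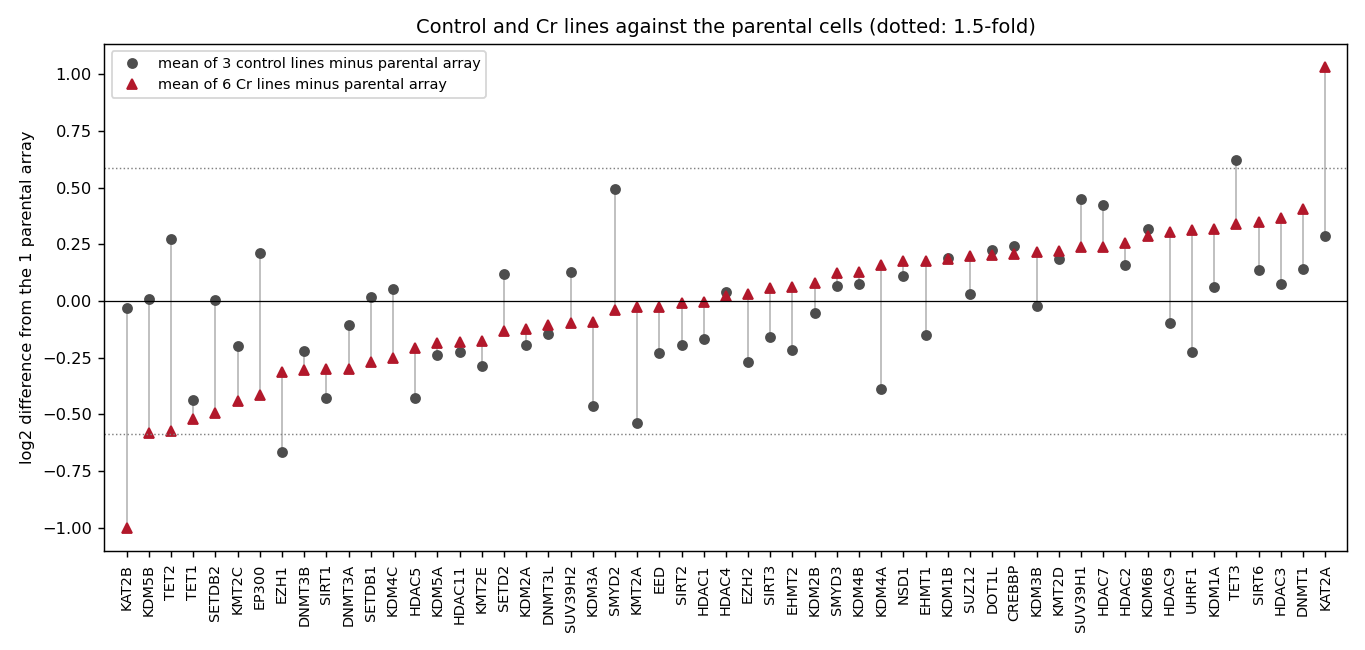
Log2 difference from the 1 parental array (y axis) of the mean of 3 control lines (circles) and of the mean of 6 Cr lines (triangles) for each of the 55 genes, ordered by the Cr lines; dotted lines mark 1.5-fold. KAT2B and KAT2A lie at the ends, and for EZH1, EZH2, KDM3A and KMT2A the triangle is the point nearer to 0.

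Genes near each other on a chromosome often moved together in these lines, so each gene was set beside up to 10 nearest genes on either side with a mean log2 intensity over 7 (20 neighbours for 51 of the 55, at least 11 for the rest). The 20 neighbours of KAT2A on chromosome 17 had a median difference of 0.55, all 20 positive and 14 called higher. The neighbours of EZH1, also on chromosome 17 and 7 of them shared with KAT2A, had a median of 0.50, with 19 positive and 10 called higher. Around TET2 on chromosome 4 the median was -0.45, with 19 negative and 15 called lower. KDM5B on chromosome 1 (median -0.39) and SETDB2 on chromosome 13 (-0.37) also lay among genes that were lower, 18 of 20 negative in each case. In all, 9 of the 55 genes, 5 of them called, had a neighbour median over 0.3 or under -0.3, and of the 45 with a mean log2 intensity over 7 it was 6 (13.3%), beside 17.7% of all 7780 genes of that level. The share among called genes alone is not given, so the 5 called genes have no background beside them. DNA copy number was not measured, and its part in these differences was not tested.

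Among the other called genes, EP300 on chromosome 22 went against its surroundings. It fell while 16 of its 20 neighbours were positive, with a median of 0.20. The neighbours of UHRF1 (median 0.12), KDM4A (0.14), EZH2 (0.14) and KDM3A (0.14) were nearer to 0 than those of KAT2A, EZH1 and TET2, and those of KAT2B (-0.26) and KMT2A (0.26) lay between. Most of them still had the sign of the called gene. For KAT2B 18 of 20 were negative, and for KMT2A, KDM4A and KDM3A 16 of 20 were positive, with 8, 3 and 5 called higher. For UHRF1 and EZH2 14 of 20 were positive, and for KDM1A 12 of 20 (median 0.06). HDAC5, DNMT3L and KDM6B were not called although their neighbours had medians of 0.41, 0.35 and 0.32, and SUV39H1 on the X chromosome had neighbours at -0.31.

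**Figure D4:**
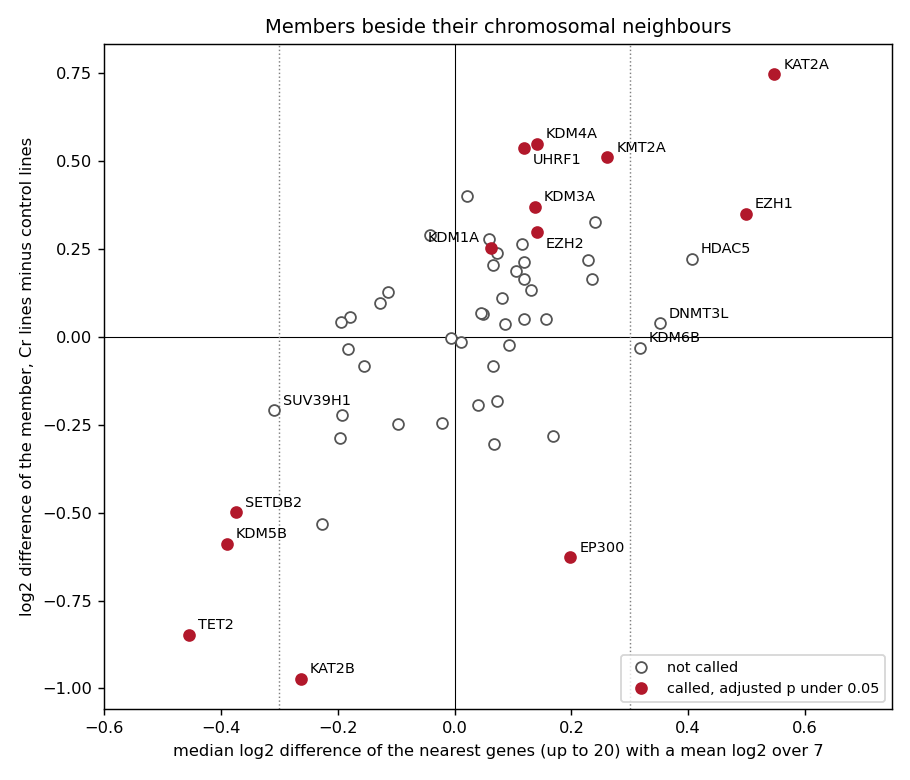
Log2 difference between the Cr and control lines of each of the 55 genes (y axis) against the median log2 difference of its nearest genes with a mean log2 intensity over 7 (x axis, up to 20 genes); filled points were called, dotted lines mark medians of 0.3 and -0.3. KAT2A and EZH1 lie at the right and TET2, KDM5B and SETDB2 at the left, while EP300 is low with neighbours at 0.20.

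Genes outside the list that act with these enzymes were read from fixed lists, of which 150 genes were measured and 33 called (22.0%), 22 higher and 11 lower, beside 14.6% of all genes and 24.0% of genes with a mean log2 intensity over 7. The counts of single lists given below are small and stand beside the same shares. The calls most often lost when 1 line was left out were TAF1 (8 of 9 analyses), WDR5 (7 of 9), and SGF29, BRD2 and NAMPT (5 of 9 each). Of 27 other methyltransferases 5 were called: PRMT3 (0.61) and SMYD5 (0.60), an arginine and a lysine methyltransferase, WDR5 (0.53) and SETD1A (0.30), parts of H3K4 methyltransferase complexes, rose, and ASH2L (-0.39), another part of those complexes, fell. Of 13 other demethylases KDM4D rose by 0.90 and the Y-linked UTY and KDM5D fell by 2.13 and 1.67. UTY was at 6.98 to 7.31 in the control lines, 7.54 in the parental cells and 4.86 to 5.05 in the 6 Cr lines, and KDM5D at 6.71 to 6.96, 7.06 and 5.13 to 5.26. All 6 Cr lines were thus near the bottom of the scale for both Y-linked demethylases. This was not particular to them: the 1 neighbour on the Y chromosome with a mean log2 intensity over 7 differed by -5.09 and was called lower. Their X-linked counterparts KDM6A and KDM5C differed by -0.25 (adjusted p = 0.185) and -0.21 (adjusted p = 0.368).

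Of 6 other deacetylases 2 were called, HDAC6, which deacetylates tubulin, and HDAC8, which deacetylates cohesin. HDAC6 fell by 0.52 and HDAC8 by 0.55 (adjusted p = 0.00715 and 0.00330), and both lie on the X chromosome, where 19 and 20 of their 20 neighbours were negative. Of 8 other acetyltransferases 1 was called, TAF1, also X-linked, which fell by 0.31. Among 29 partners and readers 6 were called, MEN1 (0.54), SGF29 (0.42), RBBP7 (0.35) and BRD2 (0.33) higher and TADA3 (-0.51) and ZBTB33 (-0.46) lower. SGF29 and TADA3, 2 of these 6, are both partners of KAT2A and KAT2B in these coactivator complexes and differed in sign. With 1 line left out SGF29 lost its call in 5 of 9 analyses and TADA3 in 2.

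**Figure D5:**
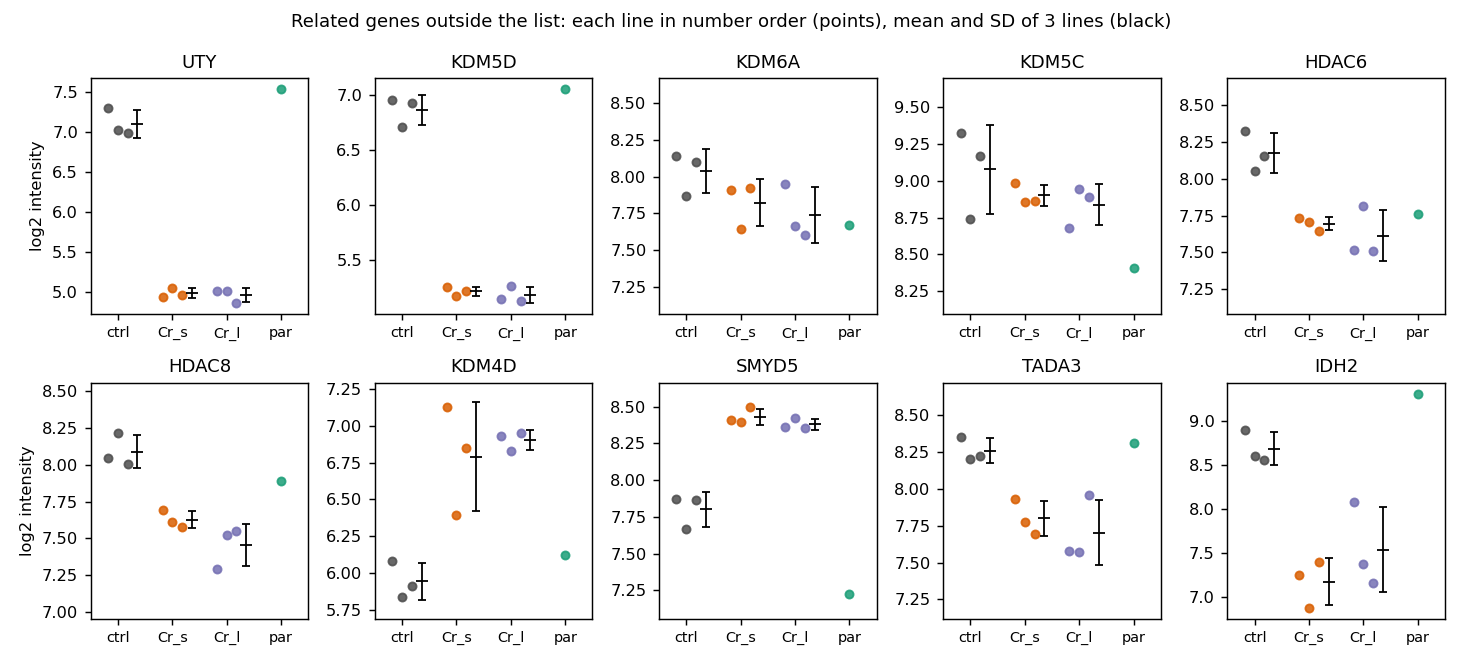
Log2 intensity (y axis, each panel spanning its own range) of 10 genes outside the list in each control (ctrl), Cr_small (Cr_s), Cr_large (Cr_l) and parental (par) array; points are lines and black marks the mean and SD of 3 lines. UTY and KDM5D lie at 4.86 to 5.26 in all Cr lines, and KDM6A and KDM5C overlap between groups.

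Of 14 enzymes that supply the cofactors 4 were called (28.6%, beside 14.6% of all genes and 24.0% of those with a mean log2 intensity over 7). IDH2 is a mitochondrial enzyme that yields 2-oxoglutarate, a substrate of TET enzymes and of the KDM demethylases other than KDM1A and KDM1B. IDH2 fell by 1.33 (limma adjusted p = 0.00641), from 8.55 to 8.90 in the control lines to 6.87 to 8.08 in the Cr lines. Its 20 neighbours on chromosome 15 had a median of -0.36. ACLY, which makes acetyl-CoA for acetylation, rose by 0.52, AHCY, which clears the product of methylation, by 0.41, and NAMPT, which makes NAD for sirtuins, by 0.34. Of 28 replication and proliferation genes 8 were called (28.6%, beside the 14.6% and 24.0% above): CDT1 (0.71), CDC6 (0.66), POLA1 (0.63), AURKB (0.43), TOP2A (0.38), AURKA (0.32) and BUB1 (0.26) rose and CCNA2 (-0.45) fell, while MKI67 differed by 0.06 (adjusted p = 0.837). Some of these genes also lay among neighbours that moved with them: the median was 0.41 around CDT1 (16 of 16 positive) and -0.47 around CCNA2 (18 of 20 negative). Around ACLY, KDM4D, RBBP7 and ASH2L it was 0.49, 0.42, 0.39 and -0.34, but around MEN1, AHCY and BUB1 0.03, -0.01 and -0.06. UHRF1, DNMT1 and EZH2 are themselves genes of dividing cells, and the part of proliferation in their values was not tested.

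Expression of genes whose promoters are often methylated was described last, because DNA methylation itself was not measured. Of 14 genes often silenced in lung cancer 4 were called, with TIMP3 (3.06), RUNX3 (0.54) and MGMT (0.25) higher and CDKN2A (-0.34) lower in the Cr lines. TIMP3, an inhibitor of matrix metalloproteinases, was at 5.61 to 6.94 in the control lines, 8.69 to 9.83 in the Cr lines and 8.38 in the parental cells. For this gene the single parental array thus lay nearer to the Cr lines. None of 11 germline genes whose promoters are methylated in somatic cells was called by limma, 1 (TEX101, 0.12) had an unadjusted p under 0.05, and their differences ran from -0.02 to 0.12; CTAG2 and MAGEA1, with the highest means of the list, were at 6.97 and 5.28 in the control lines and 7.07 and 5.28 in the Cr lines.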

How the data were processed

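RNA of 10 BEAS-2B cultures was hybridised to Affymetrix Human Gene 1.0 ST arrays, 1 array per line. The authors deposited linear intensity values, 1 per transcript cluster, and log2 of each was taken here. Their methods name quantile normalisation with RMA 16 in GeneSpring and a baseline transformation to the median of the control samples. The log2 values here ran from 4.32 to 14.05, so they were not centred on the control lines. Array medians ran from 5.82 to 5.90, and precision is limited by the number of arrays. GEO's annotation gave 1 symbol to 19310 clusters, several to 1752 and none to 7807; clusters with several named no gene.

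Group means of control, Cr_small, Cr_large and parental arrays were fitted over all 28869 clusters with limma 3.58.1 in R 4.3.3 (6 residual and 1.96 prior degrees of freedom), with Benjamini-Hochberg adjustment; the Cr lines are the mean of both Cr groups. Figures and summaries used Python 3.11.15. The parental array, without replicates, was compared by fold alone (1.5-fold). The members, the other gene lists and the alternatives were chosen with earlier results of these data known. By the rule for named genes, each of the 55 was accounted for, with values per line for those called and for DNMT1, DNMT3A, DNMT3B, TET1, EHMT1, EHMT2, SUV39H1 and HDAC1, and up to 6 called genes of each other list were named by size, with UTY, KDM5D, KDM5C and KDM6A; MKI67, AURKA, BUB1 and TEX101 were added after their values were seen. On simulated data 29 of 67 clusters changed 1.5-fold, 54 of 67 changed 2-fold and 65 of 66 changed 5-fold were recovered for the Cr lines against control over 28869 clusters, with 10 unchanged clusters called. No other cluster was changed in the simulation, a far smaller share than was called on the arrays, so the adjustment was stricter there. Alternatives covered moderation, samples in the fit, dim clusters, annotation, normalisation, a block on line number, the methods' t-test and each line left out.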

Additional observations from a re-analysis of the deposited data

Results flagged for a closer look

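In 5 of the 55 genes 1 of the 6 Cr lines stood apart from the other 5 by Dixon's test, which flags about 1 in 20 groups by chance. DNMT1 in the third Cr_large line was 9.18, where the other Cr lines were at 9.44 to 9.58 and the control mean was 9.19. UHRF1 in the same line was 9.06, against 9.40 to 9.56 in the others and a control mean of 8.88. KDM4C in the second Cr_large line was 6.95, against 7.38 to 7.61. CREBBP in the first Cr_large line was 9.20, against 8.56 to 8.77. KAT2A in the second Cr_small line was 9.14, against 8.84 to 8.93, and all of these were above the control mean of 8.18.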

How the results depend on the processing

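The 13 genes called in the Cr lines numbered 21 by the methods' t-test without adjustment and 6 after Benjamini-Hochberg, and 4 to 12 when 1 line was left out, with the lowest number without the first or the third control line. The 10 called in Cr_small became 23 and 1 by the t-test, and 3 to 11 with 1 line left out. The 7 called in Cr_large became 3 with only those groups in the fit, 11 and 1 by the t-test, and 2 to 7 with 1 line left out. Cr_large against Cr_small stayed at 0 calls with each line left out and gave 1 by the unadjusted t-test. Genes at least 1.5-fold from the parental array numbered 2 to 5 in the Cr lines with 1 line left out. The 33 calls in the other lists became 53 by the unadjusted t-test and 21 to 37 with 1 line left out. With arrays centred on their median UHRF1, KDM4A and KDM1A were not called (adjusted p = 0.0540, 0.0552 and 0.0834) and kept their sign. The difference of TET1, which was not called, ran from -0.19 to 0.075 with 1 line left out and turned positive without the third control line (0.075) or the second Cr_large line (0.017).

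Lines with the same number did not deviate together over all clusters (correlation of deviations -0.145 to 0.0984 over 9 pairs). Lines with different numbers reached 0.27, for the third Cr_small and the first Cr_large line. These correlations gave no sign of pairing by number, but they cannot tell whether some genes shared a batch. With line number as a block 9 genes were called in the Cr lines, 7 in Cr_small, 5 in Cr_large, 0 between colony sizes and 32 in the other lists.

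With 3 control lines, a gene that was not called is not shown to be unchanged. A difference of 1.5-fold was often missed on simulated data. Far fewer clusters were changed there than were called on the arrays, which makes the adjustment stricter, so that recovery does not measure the sensitivity here.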
